A study of Mus musculus with 16 samples.

Results

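Hearts of Zbtb17 cKO mice were compared with control hearts after pressure overload. The comparison took the 4 arrays titled cKO TAC and the 4 titled control TAC out of 16 in the series, 1 array for each mouse. A gene was included where a probe set carried 1 gene symbol and its mean log2 value over the 16 arrays lay above the 40th percentile (4.37), and the probe set of highest mean stood for the gene. That left 13670 genes of 19938 with such a probe set. All mice were males of the C57BL/6 background and were 8 to 10 weeks old when transverse aortic constriction (TAC) or a sham operation was done. Hearts were taken 4 weeks later, with 4 mice in each of 4 groups: Zbtb17 cKO after TAC, Zbtb17 cKO after sham, control after TAC and control after sham. The abbreviation cKO usually stands for conditional knockout. The labels do not give the floxed allele, the part of the gene removed, the promoter driving a recombinase, or what the control mice carried. RNA came from heart tissue as a whole, so a value mixes the cell types of the heart.

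Zbtb17 encodes Miz1, a transcription factor with a POZ domain and zinc fingers. It activates genes near their start sites, among them inhibitors of the cell cycle, and turns into a repressor when Myc binds it. In other cell types, genes of vesicle transport and autophagy have been reported among its targets. By narrowing the aorta, TAC makes the left ventricle pump against a higher pressure, to which cardiomyocytes respond with hypertrophy, a return of fetal genes such as Nppa and Acta1, and deposition of matrix.

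One gene passed the test between cKO and control hearts after TAC. Myl2, which encodes the regulatory light chain of ventricular myosin, was lower in cKO hearts, and no gene was higher. This is 1 of 13670 genes, or 0.00732% (limma, Benjamini-Hochberg adjusted p under 0.05). At an unadjusted p under 0.05 there were 840 genes, 6.14% of those tested, with 434 higher (3.17%) and 406 lower (2.97%) in cKO hearts. For 479 genes (3.5%) no cKO array overlapped a control array, with 271 higher (1.98%) and 208 lower (1.52%). Log2 fold changes, given throughout as cKO minus control, were positive for 6763 genes (49.5%) and negative for 6877 (50.3%), with a median of -0.002. 

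The tissue label and the genotype were checked first. The cardiomyocyte genes Myh6 and Tnnt2 were strongly detected on all 8 TAC arrays, Myh6 between 12.88 and 13.39 and Tnnt2 between 13.40 and 13.58. Both mark cardiomyocytes and do not separate ventricle from atrium. Myl7, an atrial light chain, was at 6.07, 8.83, 4.69 and 4.33 in cKO TAC replicates 1 to 4 and at 6.07, 7.26, 4.54 and 4.39 in control TAC replicates 1 to 4. Replicates 1 and 2 of both groups thus lay above 6, and replicates 3 and 4 of both groups did not. A fit without the arrays above 6 therefore compares 2 cKO TAC hearts with 2 control TAC hearts. Zbtb17 (probe set 10509998) was at 6.47, 6.49, 6.52 and 6.52 in cKO TAC hearts and at 6.49, 6.44, 6.56 and 6.30 in control TAC hearts. The groups overlapped, and the difference of 0.05 ± 0.08 (SE) had an adjusted p of 0.919. After sham the groups overlapped too, with a difference of 0.17 ± 0.08 (SE, limma adjusted p = 0.465), so the signal was not lower in cKO hearts there either. Because the deleted part is not given, this probe set does not check the genotype.

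Myl2 (probe set 10525343) had log2 values of 12.79, 12.55, 12.83 and 12.87 in the 4 cKO TAC hearts and of 13.25, 13.23, 13.22 and 13.27 in the 4 control TAC hearts. All cKO arrays lay below all control arrays, and cKO TAC replicate 2, the array of highest Myl7, was the lowest. The means were 12.76 ± 0.14 and 13.24 ± 0.02 (SD, n = 4 each). The log2 difference was -0.48 ± 0.06 (SE, limma, adjusted p of 0.00434), which is 28.4% less signal. In sham hearts, which share no array with this comparison, Myl2 was at 12.89, 12.83, 12.82 and 12.87 in cKO mice against 13.20, 13.22, 13.23 and 13.22 in control mice. That is a difference of -0.36 ± 0.06, or 22.4% less, also with no overlap, and Myl2 was the 1 gene of 13670 (0.00732%) that passed after sham (limma adjusted p = 0.0401). No gene passed after sham when any 1 cKO sham array, or control sham replicate 1, 2 or 3, was left out. The effects after TAC and after sham differed by -0.12 ± 0.08 (SE), which did not pass the test (limma interaction, unadjusted p = 0.151, adjusted p = 1). After TAC the adjusted p was between 0.00033 and 0.0292 when any 1 array was left out. It was 0.0647 without the mean-variance trend, 0.214 with only the 2 groups in the model and 0.058 with the clock gene Arntl as a covariate. Without the 6 arrays with Myl7 above 6, which leaves 2 hearts in each TAC group, it was 0.361 and the log2 fold change was -0.40. The labels give neither the promoter driving a recombinase nor what the control mice carried. Loss of Zbtb17 therefore cannot be told apart from other genetic differences between cKO and control mice, and their part in the Myl2 difference was not tested.

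**Figure D1:**
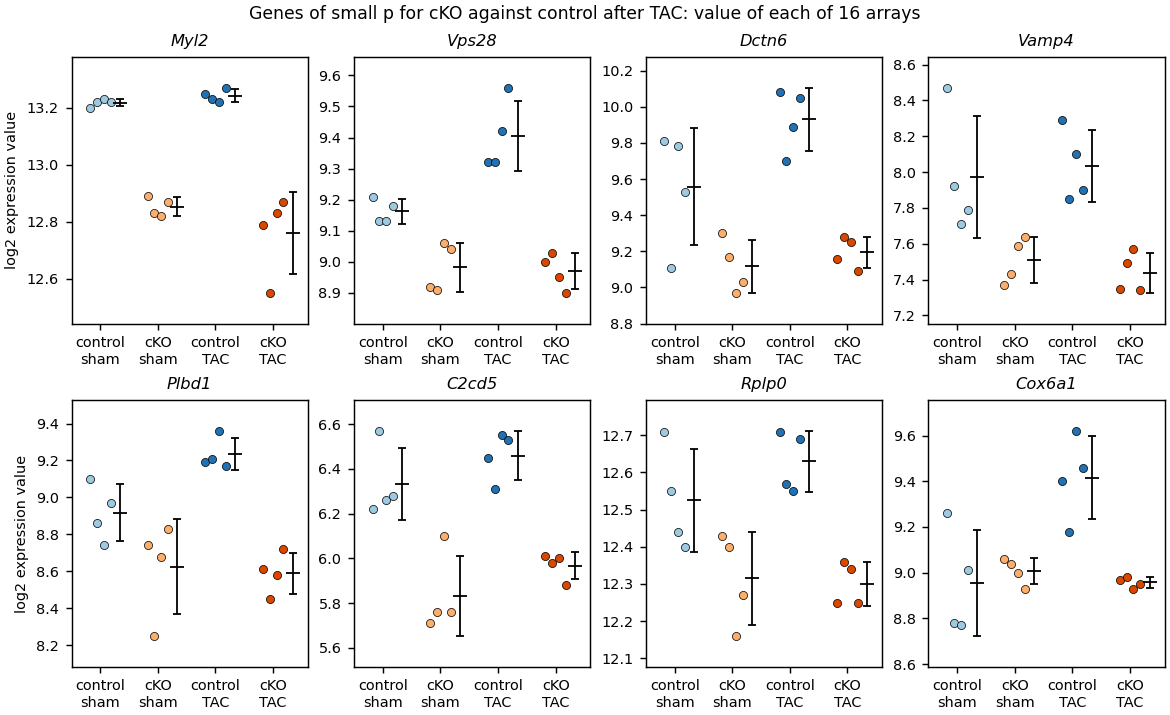
Log2 expression value (vertical axis) of 8 genes with a small p for cKO against control after TAC, in each of the 16 arrays grouped by genotype and surgery. Each point is 1 mouse, and the bar beside it gives the group's mean and SD (n = 4). In all 8 panels the 4 cKO TAC points lie below the 4 control TAC points, and of these genes Myl2 alone passed the adjusted test. In Cox6a1 the sham groups overlap, with means of 9.01 in cKO and 8.96 in control hearts.

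Myl2 was the only gene of the sarcomere that passed. Of 28 measured genes of the sarcomere and Z-disc, 21 were above and 7 below 0, with a median of 0.099 against -0.002 for all genes. Myl3, the essential light chain that pairs with Myl2 in ventricular myosin, was at 13.31, 13.22, 13.32 and 13.34 in cKO TAC hearts and 13.26, 13.29, 13.21 and 13.33 in control TAC hearts. These groups overlapped, and the difference was 0.02 ± 0.04 (SE, adjusted p = 0.934), with -0.054 after quantile normalization. Mybpc3, myosin-binding protein C, was at 0.27 ± 0.10, the Z-disc adaptor Pdlim5 at 0.34 ± 0.11, and Fbxo32, a muscle ubiquitin ligase, at 0.51 ± 0.18 (SE, adjusted p of 0.563 to 0.571). Fbxo32 had no overlap, with 9.06 to 9.15 in cKO and 8.32 to 8.85 in control arrays. Among the 10 cardiomyocyte markers of the ventricular list, not all specific to the ventricle, 7 were above and 3 below 0, with a median of 0.035. In whole tissue, fewer cells of a type and less RNA per cell cannot be told apart.

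Among genes of membrane traffic, Vps28, Vamp4 and Dctn6 had low values in all cKO TAC hearts, without passing the test. Vps28, a subunit of the complex that sorts ubiquitinated cargo into multivesicular bodies, was at 9.0, 9.03, 8.95 and 8.90 in cKO hearts and at 9.32, 9.32, 9.42 and 9.56 in control hearts. Every cKO array lay below every control array. The difference of -0.44 ± 0.07 (SE) had a limma adjusted p of 0.0809, and it passed after quantile normalization (adjusted p = 0.0347) and with array weights (0.0393). Dctn6, a subunit of dynactin, which links cargo to the dynein motor, was at 9.16, 9.28, 9.25 and 9.09 against 10.08, 9.70, 9.89 and 10.05. The difference of -0.74 ± 0.13 (SE) had an adjusted p of 0.265, and of 0.0276 without control sham replicate 2. Vamp4, a SNARE protein of fusion between endosomes and the trans-Golgi network, was at 7.35, 7.49, 7.57 and 7.34 against 8.29, 7.85, 8.10 and 7.90. Its groups did not overlap either, at -0.60 ± 0.14 (SE, adjusted p = 0.464).

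C2cd5 and Eea1 lay on opposite sides of their controls. C2cd5, a C2-domain protein of insulin-regulated vesicle insertion, was at 6.01, 5.98, 6.00 and 5.88 against 6.45, 6.31, 6.55 and 6.53 in control TAC hearts, with no overlap and a difference of -0.49 ± 0.10 (SE, adjusted p = 0.265). Eea1, a tether of early endosomes, was at 8.09, 8.03, 8.08 and 7.91 against 7.66, 7.85, 7.60 and 7.69, with all cKO arrays above the controls and a log2 fold change of 0.33 ± 0.08 (adjusted p = 0.487). Vesicle traffic genes as a list were not shifted one way: 29 of 49 measured members were above and 20 below 0, with a median of 0.022. At an unadjusted p under 0.05 there were 4 higher and 3 lower members, beside 3.17% and 2.97% of all genes, and none passed the adjusted test. In sham hearts, where 53.1% of all genes were positive and 46.6% negative, 41 of the 49 were above 0, with a median of 0.082. Of 36 genes of autophagy and lysosome, 24 were above and 12 below 0 (median 0.058), none passing. Map1lc3b and Gabarap, which both encode proteins coupled to autophagosome membranes, were at -0.20 ± 0.07 and 0.13 ± 0.05 (SE). Plbd1, a phospholipase B-like gene, was at 8.61, 8.45, 8.58 and 8.72 in cKO TAC hearts and 9.19, 9.21, 9.36 and 9.17 in control TAC hearts. Its groups stood apart by -0.64 ± 0.11 (SE, adjusted p = 0.265), with an adjusted p of 0.0227 without cKO sham replicate 2.

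The E-box CACGTG is the site bound by Myc with Max, by Usf1 and by the clock proteins Arntl and Clock, and it reads the same on both strands. It was searched in RefSeq promoter windows of GRCm38.p6, from 250 bases before to 50 bases after the start of a gene. Of the 24 genes of smallest p after TAC, 17 had a window and 2 held the letters (11.8%), near the 11.3% of 10865 genes of the comparison with a window. Both shares count a gene if any of its windows holds the motif. Of all 32851 windows counted singly 7.15% held it, a share not comparable with the gene shares. The 2 are all of the 17 that held it, and they are shown with the E-box in capitals. In Vamp4 the stretch lies at chr1:162570340-162570369 on the plus strand, with the motif at position -163 from the start. In Plbd1 it lies at chr6:136661844-136661862 on the minus strand, with the motif at position 44, and the window ends 1 base after it.
Vamp4: ccatgtacaaccCACGTGctcctccatcgg
Plbd1: ggttcccaaggcCACGTGa
A match of letters is a description of the sequence and not evidence of binding.

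Partners and cell cycle targets of Miz1 lay close to 0 as a list. Genes of vesicle traffic and autophagy are in the lists above, which do not mark those reported as targets of Miz1. The autophagy gene Ambra1 is counted both there and here. Of 23 measured genes, 9 were above and 14 below 0, with a median of -0.022. None had an unadjusted p under 0.05, beside 6.14% of all genes. Cdkn1a, an inhibitor of the cell cycle on this list, was not among the measured genes. The median was 0.008 without cKO TAC replicate 4 and 0.006 without control TAC replicate 4. Myc was at 5.42, 5.77, 5.47 and 5.25 in cKO TAC hearts against 5.11, 5.42, 4.61 and 5.52, a log2 fold change of 0.31 ± 0.44 (SE) with overlapping groups. Max, the partner of Myc, was at 0.997 of the control signal with overlapping groups, and Csrp3, the muscle LIM protein of the Z-disc, was at -0.02 ± 0.07. Cdk4, a cyclin-dependent kinase, was at -0.13 ± 0.06, and Npm1, a nucleolar protein that binds Miz1, at 0.22 ± 0.12 (SE).

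The remaining genes of smallest p came from several functions and none passed the test. Of the 24 genes of smallest p, 14 were below and 10 above 0. Lower ones included Slc47a1, a cation exporter, at -0.47 ± 0.09, Usf1 at -0.43 ± 0.09, Cryzl2 at -0.62 ± 0.13, Ogfod3 at -0.34 ± 0.07 and the predicted gene Gm5779 at -0.37 ± 0.09 (SE). Usf1, a basic helix-loop-helix transcription factor, was at 5.97, 5.65, 5.69 and 6.00 against 6.25, 6.29, 6.25 and 6.24. Its control TAC arrays lay close together, all above the cKO arrays. Higher ones included Zfp318, a zinc finger gene, at 0.43 ± 0.09, 1700025G04Rik at 0.49 ± 0.10, the palmitoyltransferase Zdhhc9 at 0.41 ± 0.09, Fam81a at 0.60 ± 0.14, Bzw1 at 0.26 ± 0.06 and Prob1 at 0.43 ± 0.10 (SE). Plod2, a lysyl hydroxylase that modifies collagen, was at 7.76, 8.14, 8.07 and 7.86 against 7.31, 7.71, 7.35 and 7.31. Tecrl, an endoplasmic reticulum protein of heart muscle in which mutations cause arrhythmia, was at 11.12, 10.85, 10.50 and 10.95 against 10.16, 10.35, 10.38 and 10.25. Both were higher in every cKO array than in any control array, at 0.54 ± 0.12 and 0.57 ± 0.13 (SE, adjusted p of 0.362 and 0.455).

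Among genes whose groups did not overlap, the highest log2 fold changes were those of Akr1e1, Ocel1, Glul and Car3. Akr1e1, an aldo-keto reductase, was at 7.11, 7.06, 7.12 and 7.48 in cKO TAC hearts and at 4.94, 6.94, 5.45 and 4.66 in control TAC hearts. The cKO arrays were tight and the controls were not, control TAC replicate 2 falling just short of the cKO values. The log2 fold change was 1.70 ± 0.45 (SE, adjusted p = 0.563), and 1.16 ± 0.45 after sham. Ocel1 was at 7.75, 7.71, 7.54 and 7.42 against 6.25, 6.82, 6.15 and 6.54, a difference of 1.16 ± 0.29 (adjusted p = 0.499). Glul, glutamine synthetase, was at 10.61, 10.88, 10.59 and 10.62 against 9.13, 10.06, 9.72 and 9.80. The difference of 1.00 ± 0.31 (SE, adjusted p = 0.563) was 0.91 ± 0.28 in a second probe set. Car3, carbonic anhydrase, was at 0.92 ± 0.74 through 1 array, cKO TAC replicate 2 at 8.24, the other cKO TAC arrays lying between 5.78 and 5.83. Without that array the difference was 0.32.

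Genes of hypertrophy and the fetal programme varied widely between mice of the same group. Of 30 measured genes, 23 were above and 7 below 0, with a median of 0.156, and none passed. Nppa, which encodes atrial natriuretic peptide, was at 12.33, 13.27, 12.41 and 11.48 in cKO TAC hearts against 9.86, 12.24, 11.50 and 12.92 in control TAC hearts. Acta1, skeletal alpha-actin, was at 12.65, 12.57, 10.79 and 10.75 against 9.31, 11.60, 9.88 and 11.90. Both overlapped widely, at 0.74 ± 0.49 and 1.02 ± 0.58 (SE, adjusted p of 0.771 and 0.723). Fhl1, a LIM protein of the stretch response, was at 10.26, 10.67, 9.47 and 9.84 against 9.23, 9.76, 9.38 and 9.23 (0.66 ± 0.21), and Enah, an actin regulator, was at 0.54 ± 0.20. Cited4, a transcriptional cofactor, was at 6.82, 6.67, 6.87 and 6.59 against 7.04, 6.93, 7.21 and 7.30, below the controls in every array (-0.38 ± 0.12, adjusted p = 0.563). Nppb was at 0.20 ± 0.41, Myh7 at 0.22 ± 0.52, Ankrd1 at 0.23 ± 0.20, Des at 0.22 ± 0.10 and Atp2a2, the calcium pump of the sarcoplasmic reticulum, at 0.00 ± 0.07 (SE). Without the 6 arrays with Myl7 above 6, the list split into 14 above and 16 below 0 (median -0.005), Nppa was at -0.26 and Acta1 at -0.12.

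**Figure D2:**
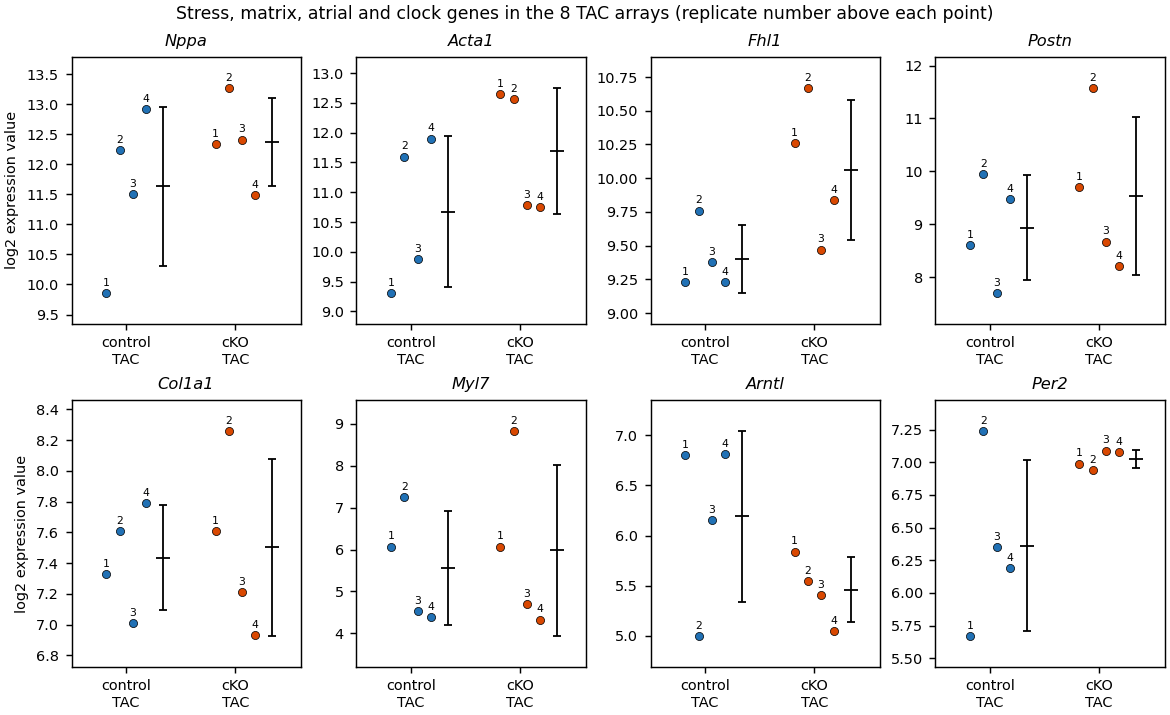
Log2 expression value (vertical axis) of stress, matrix, atrial and clock genes in the 8 TAC arrays, with the replicate number above each point and each group's mean and SD beside it (n = 4). cKO TAC replicate 2 is the highest array in Postn (11.58), Col1a1 (8.26) and Myl7 (8.83). In Per2 the cKO arrays lie between 6.94 and 7.09 while the controls range from 5.67 to 7.24.

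No matrix gene passed, and the balance of signs in the list turned without 1 cKO array. Of 44 measured genes of the extracellular matrix, 29 were above and 15 below 0, with a median of 0.105. Postn, a matricellular protein of fibrosis, was at 9.70, 11.58, 8.67 and 8.21 in cKO TAC hearts against 8.60, 9.95, 7.70 and 9.48. Col1a1 was at 7.61, 8.26, 7.21 and 6.93 against 7.33, 7.61, 7.01 and 7.79, and the groups of both genes overlapped. The differences were 0.61 ± 0.64 for Postn, 0.07 ± 0.25 for Col1a1, 0.14 ± 0.20 for Col3a1 and 0.55 ± 0.62 for Ccn2 (SE). Without cKO TAC replicate 2, 10 matrix genes were above and 34 below 0 (median -0.129), and Postn was at -0.072 and Col1a1 at -0.18. Without the 6 arrays with Myl7 above 6 there were 4 above and 40 below (median -0.26). Fibroblast markers went from 14 above and 3 below 0 (median 0.112) to 3 above and 14 below without cKO TAC replicate 2 (median -0.094). That array also had the highest mean of the 10 atrial cardiomyocyte markers on the 8 TAC arrays, 8.2 against 6.71 to 7.56 in the others. The part of atrial tissue in these values was not tested.

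Genes of fatty acid oxidation were mostly lower in cKO hearts after TAC and mostly higher after sham, with none passing the test. After TAC 25 of 28 measured genes were below and 3 above 0, with a median of -0.159. At an unadjusted p under 0.05 there were 6 lower members, beside 2.97% of all genes. In sham hearts 24 of the 28 were above and 4 below 0 (median 0.115), where 53.1% of all genes were positive. Other lists were mostly above 0 after sham too, such as 19 of 20 branched-chain and 31 of 35 proteasome genes. Some were mostly below, such as 17 of 18 interferon response genes. Array means of the fatty acid list overlapped between genotypes after both surgeries. Acads, the short-chain acyl-CoA dehydrogenase, was at 9.61, 9.27, 9.57 and 9.68 in cKO TAC hearts and at 9.84, 9.73, 9.92 and 9.74 in control TAC hearts. Plin5, a coat protein of lipid droplets, was at 7.87, 7.31, 7.74 and 8.01 against 8.17, 7.74, 8.60 and 8.11. Acads did not overlap and Plin5 did, at -0.28 ± 0.11 and -0.42 ± 0.17 (SE, adjusted p of 0.629 and 0.623). The acyl-CoA thioesterases Acot2 and Acot1, neighbouring genes of similar sequence that a probe set may not separate, were at -0.34 ± 0.13 and -0.50 ± 0.14. cKO TAC replicate 2 had the lowest mean of the list, 10.15 against 10.43 to 10.76 in the other TAC arrays. The counts were 8 above and 20 below 0 without it (median -0.062). They were 14 and 14 (median 0) without the 6 arrays with Myl7 above 6.

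The respiratory chain showed a smaller shift. Of 44 measured subunits, 32 were below and 12 above 0 after TAC, with a median of -0.048, and 27 were above 0 after sham. Cox6a1, a subunit of cytochrome c oxidase, was at 8.97, 8.98, 8.93 and 8.95 in cKO TAC hearts against 9.40, 9.18, 9.62 and 9.46. The cKO arrays were nearly equal and all below the controls, at -0.46 ± 0.10 (SE, adjusted p = 0.411). Uqcrfs1, the Rieske protein of complex III, was at -0.29 ± 0.09 and the ATP synthase subunit Atp5o at -0.18 ± 0.07 (SE). Without cKO TAC replicate 2 there were 20 subunits below and 24 above 0. Sdhc, of succinate dehydrogenase, was at -0.27 ± 0.09, and the antioxidant genes Sod1 and Mgst3 at -0.20 ± 0.06 and -0.39 ± 0.12 (SE, adjusted p of 0.563 each).

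No endothelial marker passed singly. All 16 measured markers had negative log2 fold changes after TAC, between -0.48 and -0.09 with a median of -0.21. Of them 5 had an unadjusted p under 0.05, beside 2.97% of all genes that were lower at this p. After sham 14 of the 16 were negative, with a median of -0.178. Kdr, the main receptor of vascular endothelial growth factor, was at 9.36, 9.20, 9.03 and 9.13 in cKO TAC hearts against 9.76, 9.25, 9.31 and 9.79. Eng, a co-receptor of TGF-beta, was at 9.93, 9.94, 9.50 and 9.61 against 10.18, 10.08, 9.94 and 10.09. Each gene had 1 or more cKO arrays that reached a control array, at -0.35 ± 0.12 and -0.33 ± 0.11 (SE, adjusted p = 0.563 each). The tight junction gene Cldn5 was at -0.48 ± 0.21 and the receptor gene Tie1 at -0.30 ± 0.13 (SE). The mean of the 16 markers was 9.11, 9.06, 8.77 and 8.84 in cKO TAC hearts and 9.31, 9.07, 8.98 and 9.33 in control TAC hearts, so the groups overlapped. All 16 were also negative under quantile normalization (median -0.229), after median centring (-0.198) and without the 6 arrays with Myl7 above 6 (-0.345). With any 1 array left out, 15 (without cKO TAC replicate 3) or 16 were negative. Vegfb, an endothelial growth factor, was at -0.22 ± 0.07 with no overlap.

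Among genes of antigen presentation and immediate early genes none passed. H2-Aa, a class II antigen-presenting chain, was at 7.41, 6.86, 6.70 and 7.10 against 8.36, 8.71, 7.08 and 7.59, a difference of -0.92 ± 0.29 (SE, adjusted p = 0.563), and -1.10 ± 0.29 after sham. Cd74, the invariant chain that accompanies it, was at -0.52 ± 0.27 after TAC and -0.84 ± 0.27 after sham. Both count among the macrophage markers, of which 12 of 18 were below and 6 above 0, with a median of -0.045. That balance turned to 12 above and 6 below 0 without control TAC replicate 4 (median 0.135) or cKO TAC replicate 4 (0.048) and to 11 above and 7 below without cKO TAC replicate 3 (0.043). It was 1 above and 17 below without cKO TAC replicate 2 (-0.234). Of 25 immediate early genes, 19 were below and 6 above 0 (median -0.145). Klf4, a transcription factor induced by shear stress, was at 7.40, 7.35, 7.09 and 7.59 in cKO TAC hearts and at 8.14, 7.80, 8.05 and 8.27 in control TAC hearts. Jun was at 8.14, 8.18, 8.18 and 7.97 against 8.63, 8.45, 8.61 and 8.90. Neither gene overlapped after TAC, at -0.71 ± 0.21 and -0.53 ± 0.26 (SE), and after sham they were at 0.02 ± 0.21 and -0.10 ± 0.26. Klf2 and Dusp1 were at -0.48 ± 0.21 and -0.39 ± 0.15, and Atf3 at -0.08 ± 0.76 (SE).

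No clock gene passed the test, and several varied between mice of 1 group. Of 17 measured clock genes, 14 were above and 3 below 0 after TAC (median 0.295), and 4 above and 13 below after sham (median -0.25). Arntl, an activator of the clock, was at 5.84, 5.55, 5.41 and 5.05 in cKO TAC hearts against 6.80, 5.0, 6.15 and 6.81 in control TAC hearts. Per2, a repressor of the clock, was at 6.99, 6.94, 7.09 and 7.08 against 5.67, 7.24, 6.35 and 6.19. Control TAC replicate 2 stood apart from its group in both genes, so both overlapped, at -0.73 ± 0.33 and 0.66 ± 0.24 (SE, adjusted p of 0.645 and 0.577). After sham Per2 was at -0.59 ± 0.24, a difference between the 2 effects of 1.25 ± 0.34 (limma interaction, unadjusted p = 0.00228, adjusted p = 1). Tef and Cry1 were at 0.38 ± 0.17 and 0.22 ± 0.09 after TAC (SE). The labels give no time of day, and its part in these values was not tested. With Arntl as a covariate 10 clock genes were above and 6 below 0 (median 0.045). Arntl is itself a clock gene, and its own difference is set to 0 in that fit. The fit takes out whatever varies with Arntl, so the smaller median is no test of time of day.

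Ribosomal protein genes were mostly below 0 by small amounts, and none passed. Of 26 measured genes, 25 were below and 1 above 0 after TAC (median -0.116), and 23 below and 3 above after sham (median -0.078). Rplp0, of the ribosomal stalk, was at 12.25, 12.36, 12.34 and 12.25 against 12.71, 12.57, 12.55 and 12.69, with no overlap. It was at -0.33 ± 0.07 (SE, adjusted p = 0.362), and a second probe set at -0.31 ± 0.08. Rps9, of the small subunit, was at 9.83, 9.88, 9.97 and 9.87 against 10.41, 10.16, 10.48 and 10.30, a difference of -0.45 ± 0.10. Its other probe set was at -0.04 ± 0.09, so the 2 probe sets of Rps9 disagree. Rpl13 was at -0.27 ± 0.10, with 8 other probe sets between -0.36 and -0.16. Ribosomal protein genes have many processed copies in the genome, and values of probes that match several copies are uncertain.

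**Figure D3:**
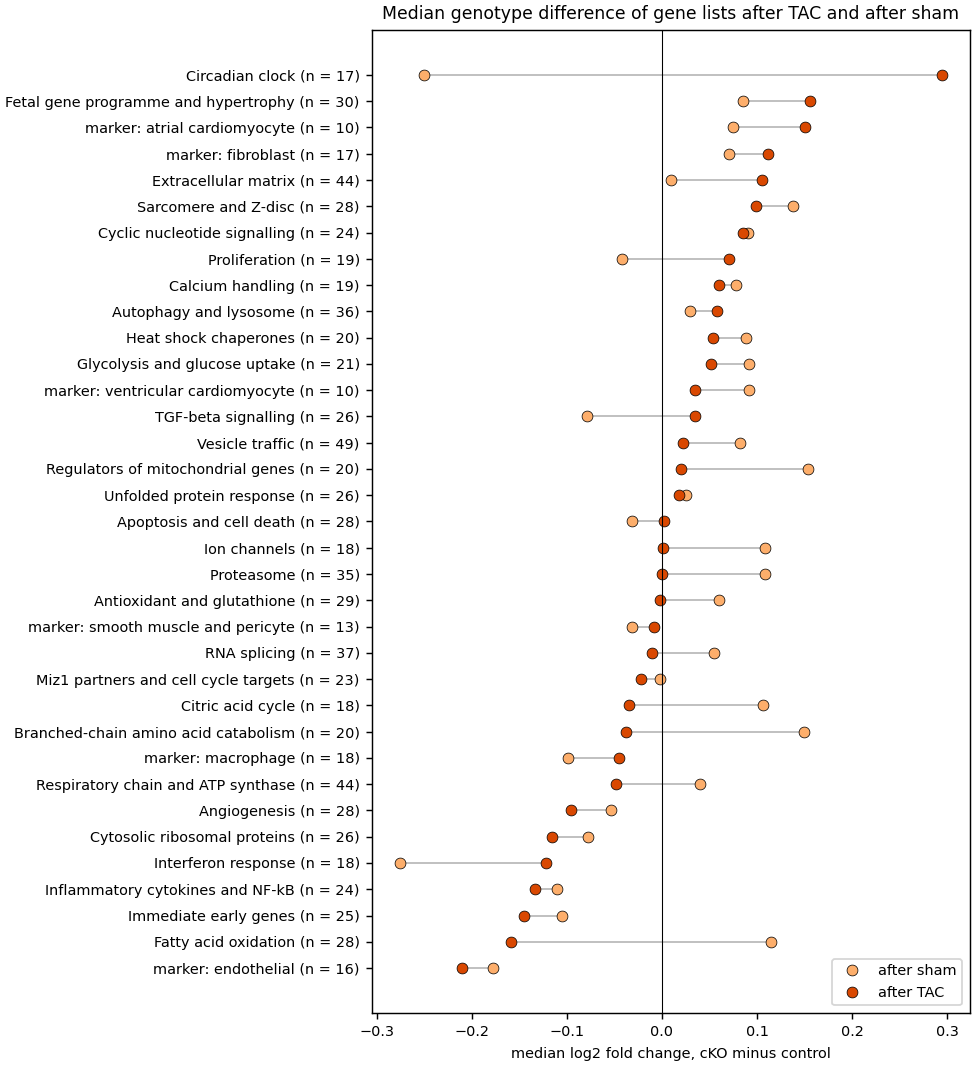
Median log2 fold change, cKO minus control (horizontal axis), of each gene list with 10 or more measured genes, after sham (light points) and after TAC (dark points), with the number of measured genes beside the name. Endothelial markers are on the left at both points (-0.21 after TAC, -0.178 after sham), while fatty acid oxidation (-0.159 and 0.115) and clock genes (0.295 and -0.25) lie on opposite sides of 0.

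No member of the remaining lists passed. After TAC the median was 0.06 for 19 calcium handling genes, 0.001 for 18 ion channel genes, -0.038 for 20 genes of branched-chain amino acid catabolism and 0.052 for 21 genes of glycolysis. Without cKO TAC replicate 2, the branched-chain list went from 6 above and 14 below 0 to 14 above and 6 below (median 0.077), and the glycolysis median was -0.01 without control TAC replicate 1. The median was 0.018 for 26 genes of the unfolded protein response, where the sensor Ern1 was at 0.28 ± 0.09 (SE, adjusted p = 0.563) with no overlap. It was 0.002 for 28 genes of apoptosis and -0.01 for 37 genes of splicing. With 1 array left out, medians ran from -0.056 to 0.112 for ion channels, -0.014 to 0.043 for the unfolded protein response, -0.044 to 0.019 for apoptosis and -0.027 to 0.007 for splicing, so none of these 4 lists kept 1 sign. Inflammatory genes were below 0 in 17 of 24 members (median -0.134), with Ccl5, a chemokine, at -0.27 ± 0.08. Interferon response genes were below 0 in 13 of 18 members (median -0.122) and above 0 in 11 of 18 without control TAC replicate 4 (median 0.052).

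The genotype differences after TAC and after sham, which rest on separate mice, were then set side by side. They had the same sign for 8674 of 13670 genes (63.5%), and across genes Pearson's r was 0.359 and Spearman's rho 0.38. Genes are not independent replicates, so this is a description. Of the 840 genes with an unadjusted p under 0.05 after TAC, 639 (76.1%) had the same sign after sham, as did 20 of the 24 genes of smallest p. C2cd5 was at -0.50 ± 0.10 after sham, Vamp4 at -0.46 ± 0.14, Dctn6 at -0.44 ± 0.13, Gm5779 at -0.37 ± 0.09, Tecrl at 0.42 ± 0.13, Plbd1 at -0.29 ± 0.11 and Vps28 at -0.18 ± 0.07 (SE). 1700025G04Rik and Prob1 were at 0.29 ± 0.10 each after sham (SE). Besides Myl2, those of the 24 without overlap after both surgeries were C2cd5, Vamp4, Vps28, Gm5779, Tecrl, 1700025G04Rik and Prob1. None of these passed the adjusted test in either. The share of all genes without overlap after both surgeries was not counted. After sham 698 genes (5.11%) had no overlap. The control sham arrays agreed least with their own group (mean Spearman of 0.9743 to 0.9806, against 0.9837 to 0.9858 for arrays of the other groups).

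**Figure D4:**
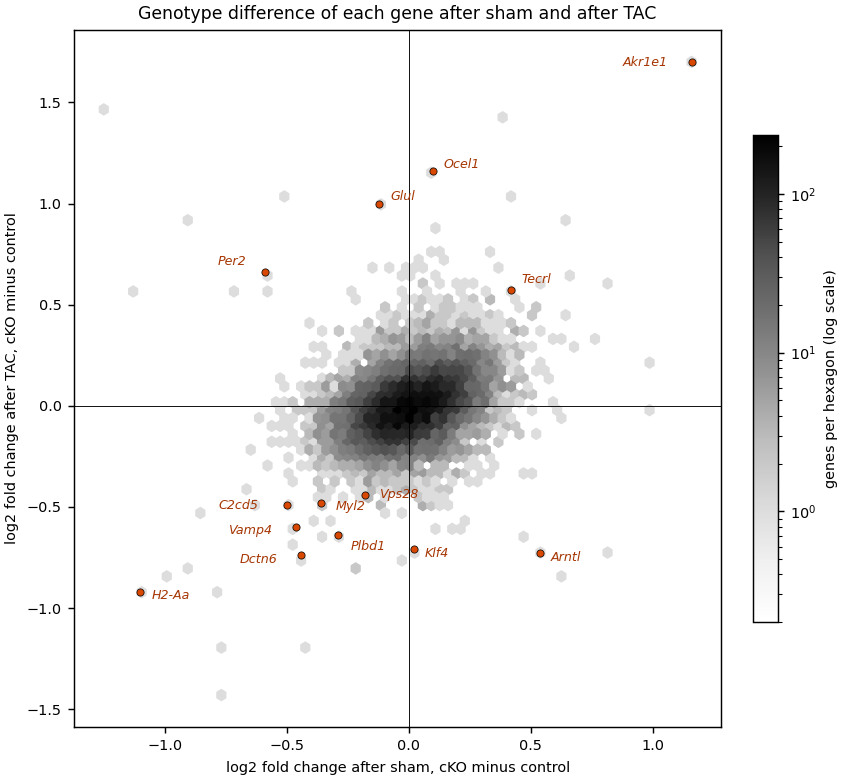
Log2 fold change, cKO minus control, of each of 13670 genes after sham (horizontal axis) and after TAC (vertical axis), with darker hexagons holding more genes (log scale) and 14 genes marked in colour. Akr1e1 (1.16 and 1.70) and H2-Aa (-1.10 and -0.92) lie far out in the same direction after both surgeries, while Per2 (-0.59 and 0.66) and Arntl (0.54 and -0.73) lie in opposite quadrants.

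No gene passed the test of the difference between the effects after TAC and after sham. The limma interaction called 0 of 13670 genes, with 410 (3.0%) at an unadjusted p under 0.05, and every gene named here had an adjusted p of 1. The smallest p belonged to Ogfod3, at -0.34 ± 0.07 after TAC and 0.12 ± 0.07 after sham. Cope, a subunit of the COPI coat that carries vesicles back from the Golgi, followed. It was at 9.16, 9.14, 9.20 and 9.18 in cKO TAC hearts and at 9.35, 9.40, 9.33 and 9.48 in control TAC hearts, with a difference of -0.22 ± 0.06 after TAC and 0.15 ± 0.06 after sham (SE). Neither surgery gave an overlap, and the direction was opposite. Usf1 was at 0.08 ± 0.09 after sham, Cryzl2 at 0.10 ± 0.13, Cox6a1 at 0.05 ± 0.10 and the lysosomal sulfatase Arsa at 0.17 ± 0.10, against -0.43, -0.62, -0.46 and -0.37 after TAC. Lrrc71 was at -0.29 ± 0.08 after sham and 0.14 ± 0.08 after TAC (SE).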

How the data were processed

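RNA from 16 hearts was labelled with biotin and hybridised to Affymetrix arrays, 1 for each mouse, per the labels. The deposited table holds log2 values for 35556 probe sets, and the scale was read from the values. MAS5 is named in the submitters' processing notes, without a version, and how arrays were scaled to each other is not given in the sources used. Precision is limited by the number of arrays. Of all probe sets, 21789 have 1 gene symbol in the platform annotation, 1621 have several and 12146 are unlisted, and 21698 were matched to RefSeq genes of GRCm38.p6.

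The 21333 probe sets above the 40th percentile were tested with limma 3.58.1 in R 4.3.3, fitting 4 group means to 16 arrays, which leaves 12 degrees of freedom. Variances were moderated along their trend with the mean, tests were two-sided, and p-values were adjusted by Benjamini-Hochberg over all probe sets tested. The test was run on simulated data: with 200 of 21333 probe sets changed between genotypes after TAC, it recovered 39.6% of log2 changes of 0.5 and 88.4% of those of 1. Members and gene lists were chosen with earlier results of these data known. Named are genes that passed, filled up to 24 by smallest p, the 8 largest differences each way without overlap, key genes, up to 3 of smallest p per list, and 6 by the interaction. Lists got counts and medians, with no test. Alternatives changed 1 choice at a time. Unlisted probe sets may include controls. Samples with the same number did not vary together (correlations of -0.205 to 0.191), so numbers were not treated as pairs.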

Additional observations from a re-analysis of the deposited data

Results flagged for a closer look

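Single samples that stood far from the other 3 of their group were looked for in 93 genes, in the cKO TAC and the control TAC group of each (186 groups). The rule was the gap to the nearest sample divided by the range of the group. It marked 6 samples. The cut-off was set to mark 1 in 20 groups by chance. These genes share the same arrays and were partly chosen for groups without overlap, so that rate gives no expected number here. Plod2 was at 7.71 in control TAC replicate 2, the others lying between 7.31 and 7.35. Akr1e1 was at 7.48 in cKO TAC replicate 4, against 7.06 to 7.12. Glul was at 10.88 in cKO TAC replicate 2, against 10.59 to 10.62, and Car3 was at 8.24 in the same heart, against 5.78 to 5.83. Plscr2, a phospholipid scramblase, was at 8.37 in cKO TAC replicate 3, against 8.08 to 8.11. Dusp1, a phosphatase of MAP kinases, was at 8.64 in that heart, against 8.92 to 8.97.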

How the results depend on the processing

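After TAC the count of 1 gene became 2 under quantile normalization and with array weights (Myl2 and Vps28) and with Myl7 as a covariate (Myl2 and Plbd1). It became 0 without the trend, with only the groups compared, without the 6 arrays with Myl7 above 6 and with Arntl as a covariate. With 1 array left out it was 1 to 2, the second gene being Hagh without cKO TAC replicate 1, Plbd1 without cKO sham replicate 2 or Dctn6 without control sham replicate 2. After sham the count of 1 became 0 under median centring, the filter set at the 60th percentile, without the trend, with only genes of the comparison tested, with a gene's probe sets averaged, without the 6 arrays and with Arntl as a covariate. It became 2 with only the groups compared (Myl2 and Myot). With 1 array left out it was 4 without control sham replicate 4. It was 0 without any 1 cKO sham array or any 1 control TAC array. It was also 0 without control sham replicate 1, 2 or 3 and without cKO TAC replicate 1 or 4. With the replicate number as a block the count was 1 after TAC, 0 after sham and 0 for the interaction, and only replicate 3 correlated best with its own number. The interaction count was 0 under all alternatives run. It needs all 4 groups, so only the groups compared was not run for it. Among the 93 named genes a sign changed in 48 values, none of them of a gene that passed. Leaving out the 6 arrays with Myl7 above 6 kept 2 hearts in each TAC group. The changed values there were Des -0.005, Max 0.05, Nppa -0.26, Nppb -0.83, Myh7 -0.23, Acta1 -0.12, Postn -0.15, Col1a1 -0.33, Col3a1 -0.21, Ccn2 -0.24 and Ankrd1 -0.12. With Arntl as a covariate they were Myh6 -0.061, Max 0.0055, Myh7 -0.37, Myl7 -0.021, Atp2a2 -0.046 and Atf3 0.36, and with Myl7 as a covariate Col1a1 -0.0025. Quantile normalization gave Myl3 -0.054, Csrp3 0.0046 and Atp2a2 -0.07, median centring gave Max 0.0075, and array weights gave Myl7 -0.022 and Col1a1 -0.08. With 1 array left out the ranges were -0.04 to 0.13 for Myh6, -0.065 to 0.018 for Csrp3, -0.081 to 0.059 for Max, -0.19 to 0.51 for Nppb, -0.19 to 0.54 for Myh7, -0.54 to 0.98 for Myl7, -0.072 to 1.05 for Postn, -0.18 to 0.26 for Col1a1, -0.12 to 0.28 for Col3a1, -0.036 to 0.074 for Atp2a2 and -0.16 to 0.056 for Atf3. The cause of these changes was not tested. List medians under the same left-out arrays ran from -0.298 to -0.15 for endothelial markers, from -0.222 to -0.062 for fatty acid oxidation, from -0.149 to -0.082 for ribosomal proteins, from 0.175 to 0.448 for clock genes, from 0.037 to 0.198 for hypertrophy genes, from -0.129 to 0.268 for matrix genes and from -0.234 to 0.135 for macrophage markers. With 4 mice a group, small differences are often not detectable.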

Other observations

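Further genes had TAC groups that did not overlap. Zdhhc2, a palmitoyltransferase, was at 6.27, 6.49, 5.74 and 5.56 in cKO TAC hearts against 5.55, 5.45, 5.11 and 4.85 in control TAC hearts, a difference of 0.78 ± 0.24 on the log2 scale (SE, limma, adjusted p = 0.563). The cKO arrays of replicates 1 and 2 were the highest. Resf1 was at 7.86, 7.48, 7.38 and 7.17 against 7.13, 6.58, 6.69 and 6.77, a difference of 0.68 ± 0.40, and in sham hearts its spread was wider, at 7.54 ± 1.02 and 7.47 ± 0.70 (SD, n = 4 each). Nrf1, from the list of regulators of mitochondrial genes (13 of 20 measured genes above and 7 below 0, median 0.02), was at 5.82, 5.93, 5.83 and 5.89 against 6.13, 5.96, 6.10 and 6.04, below the controls in every heart (-0.19 ± 0.08, adjusted p = 0.634), and at 0.05 ± 0.08 after sham.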
